A study of Mus musculus with 6 samples.

Results

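The nuclei described here are endothelial nuclei of the mouse tibial periosteum and of the early fracture callus that carried transcripts of Vwf, Selp, Aqp1 and Lhx6. They were chosen by unique molecular identifiers (UMIs, 1 per captured transcript). A nucleus was a member where the UMIs of Vwf, Selp, Aqp1 and Lhx6 summed to 3 or more and those of the endothelial genes Pecam1, Cdh5, Emcn and Flt1 to 2 or more. It also had to hold under 3 UMIs of the lymphatic genes Prox1, Mmrn1 and Flt4, under 2 of the arterial genes Gja5, Sema3g, Sox17 and St8sia6, and none of the leukocyte gene Ptprc. The rule found 237 nuclei among the 888 endothelial nuclei without Ptprc and the 8073 nuclei that passed the filter, out of 13551 barcodes. They are called Vwf/Selp nuclei below. Because these 16 genes chose the nuclei, their levels are given as a description, with no test.

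Single-nucleus RNA sequencing was made from 6 libraries of C57BL6 mice (C57BL/6ScNj in the methods), 12 weeks old and of both sexes according to the methods, with no transgene and no drug named in the labels. For the fracture surgery the methods name ketamine, medetomidine, atipamezole and buprenorphine. They name none for uninjured mice, so these drugs and fracture cannot be told apart. The uninjured group (2 libraries) was periosteum scraped from tibias of 4 mice each after the marrow had been flushed. The fractured groups were periosteum and hematoma 3 days (2 libraries), 5 days (1 library) and 7 days (1 library) after an open, non-stabilized tibial fracture, each pooled from 4 to 9 mice. Single animals cannot be told apart in such pools, so p-values measure the spread between libraries, and with 1 library each, day 5 and day 7 had no replicate of their own. In all lists of values the uninjured and the day 3 libraries come in the order replicate 1, replicate 2.

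Veins and venules drain capillaries, and in most tissues their endothelium is where leukocytes leave the blood. Endothelial cells store von Willebrand factor (Vwf), which binds platelets, together with P-selectin (Selp), which catches leukocytes, in secretory granules named Weibel-Palade bodies. Aqp1 is a water channel, Lhx6 a LIM homeobox factor and Emcn (endomucin) a sialomucin of venous and capillary endothelium. Sinusoids are the wide, leaky vessels of liver, spleen and marrow, where scavenger receptors such as Stab1 and Stab2 mark the endothelium.

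Selp (ENSMUSG00000026580, chr1:164115264-164150026, GRCm38) lies on the same chromosome as Sele (ENSMUSG00000026582, chr1:164048234-164057677), the gene of E-selectin, which inflamed endothelium makes. Aqp1 (ENSMUSG00000004655, chr6:55336432-55348555), Lhx6 (ENSMUSG00000026890, chr2:36081953-36105408) and Vwf (ENSMUSG00000001930, chr6:125546774-125686679) lie on other chromosomes. The 250 bases before the start of both selectin genes are shown, 5′ to 3′, because their levels were highest at day 3 in the nuclei described here. The sequences are from RefSeq on GRCm38.p6. Selp (chr1:164115014-164115263, plus strand) and Sele (chr1:164047984-164048233, plus strand) read as follows, with motif matches on either strand in capitals.
Selp: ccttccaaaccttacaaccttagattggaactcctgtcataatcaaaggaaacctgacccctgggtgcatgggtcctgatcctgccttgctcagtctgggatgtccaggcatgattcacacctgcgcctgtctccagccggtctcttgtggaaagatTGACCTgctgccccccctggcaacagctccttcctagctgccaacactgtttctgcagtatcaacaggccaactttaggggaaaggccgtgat
Sele: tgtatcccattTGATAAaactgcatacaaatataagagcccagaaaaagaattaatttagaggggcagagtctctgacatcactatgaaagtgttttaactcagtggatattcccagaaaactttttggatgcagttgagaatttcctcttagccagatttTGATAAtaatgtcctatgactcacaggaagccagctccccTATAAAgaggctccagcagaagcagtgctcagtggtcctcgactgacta
Each motif was searched on both strands, and no 2 matches overlapped. Selp held 1 match of the nuclear receptor half-site AGGTCA, on the minus strand, a motif found in 14.0% of all 32851 windows of this length in the table. Sele held 1 TATA box, spelled TATAAA, which 12.4% of the windows hold. It also held 2 matches of the GATA factor motif, searched as TGATAA and present in 7.94% of the windows. The ETS factor motif, searched as GGAAGT and present in 19.7% of the windows, was in neither. These matches are descriptions of the letters only, and the motifs were chosen with the sequences in view.

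The libraries differed in ways that their groups do not explain. Total UMIs over all barcodes ranged from 1499281 (uninjured replicate 1) to 29796296 (day 3 replicate 2). The file headers name Cell Ranger 6.0.0 for uninjured replicate 1, day 5 and day 7, and 7.1.0 for uninjured replicate 2 and both day 3 libraries. Uninjured replicate 1 held 29 EGFP and 14 tdTomato UMIs over all barcodes, 5 and 1 of them in Vwf/Selp nuclei, although its label names no reporter. The libraries of uninjured replicate 2 and day 3 replicate 2, whose gene tables also list both reporters, held 0. Xist, transcribed from the inactive X chromosome, had 0 UMIs in Vwf/Selp nuclei of uninjured replicate 2, which held UMIs of 4 Y-linked genes. In day 3 replicate 2 all 19 members had Xist and none a UMI of those Y-linked genes, and the other libraries held both. Among the 13551 barcodes, 18 occurred in more than 1 library, none of them a member.

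Members numbered 48 and 100 without injury, then 8 and 19 (day 3), 56 (day 5) and 6 (day 7). Their median UMI counts were 3191.5, 4602.5, 2411.5, 9166, 4308.5 and 2177.5 in that order. Comparisons of expression therefore used libraries with at least 10 nuclei in each set compared, so day 3 replicate 1 and day 7 entered none of them. Vwf/Selp nuclei made up 7.45% (exact 95% interval 5.55 to 9.76) and 8.46% (6.94 to 10.2) of the filtered nuclei in the uninjured libraries. After fracture the share was 1.06% (0.46 to 2.08) and 1.10% (0.67 to 1.72) at day 3, followed by 2.31% (1.75 to 2.99) at day 5 and by 0.444% (0.163 to 0.964) at day 7. The uninjured and fractured libraries did not overlap. The mean was 7.96% ± 0.71 (SD, n = 2) uninjured and 1.23% ± 0.78 (SD, n = 4) fractured, and an exact two-sided permutation test over libraries gave p = 0.133, the smallest p that 4 against 2 libraries allow. For day 3 alone against uninjured (2 against 2) the exact permutation test cannot go below p = 0.333, which it gave.

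**Figure D1:**
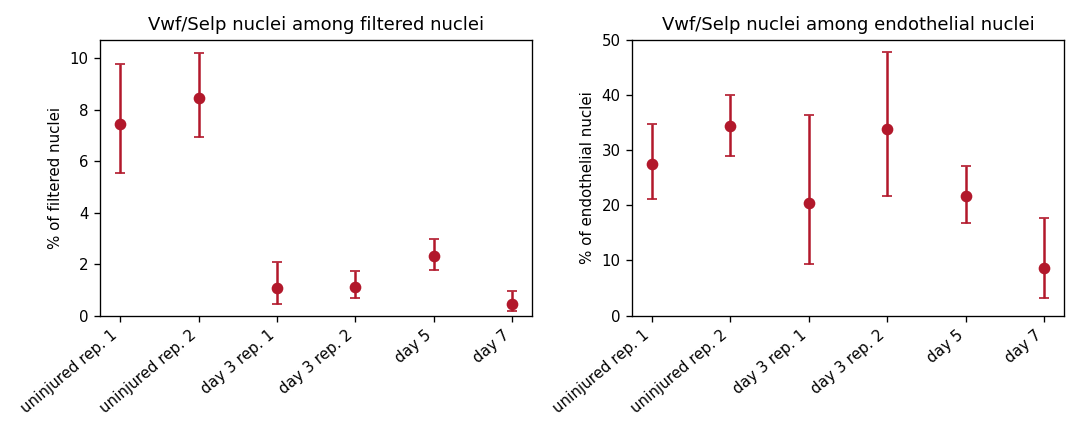
Share of Vwf/Selp nuclei in each library, in percent of filtered nuclei (left) and of endothelial nuclei without Ptprc (right). Points are libraries and bars exact binomial 95% intervals, which cover counting error only. On the left both uninjured libraries (7.45% and 8.46%) sit above all fractured libraries (0.444% to 2.31%), while on the right the groups overlap.

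Among endothelial nuclei the shares overlapped between groups. They were 27.6% (21.1 to 34.9) and 34.4% (28.9 to 40.1) uninjured, 20.5% (9.30 to 36.5) and 33.9% (21.8 to 47.8) at day 3, followed by 21.7% (16.8 to 27.2) at day 5 and by 8.57% (3.21 to 17.7) at day 7. The day 3 mean was 27.2% ± 9.49 (SD, n = 2) against 31.0% ± 4.79 (SD, n = 2), with exact permutation p = 0.667. Without day 3 replicate 1 the day 3 difference of -3.75 percentage points became 2.95. The gate needs 3 UMIs, and deep nuclei reach this more easily. The share was therefore also taken over the 6501 nuclei with at least 1000 UMIs. This limit left out 1572 nuclei, from 19 in day 3 replicate 1 to 512 at day 7. With each of the 6501 nuclei thinned to 1000 UMIs before the gate, the share of endothelial nuclei was 29.3% and 23.3% uninjured, 13.3% and 15.2% at day 3, followed by 7.82% at day 5 and by 6.06% at day 7, and the groups did not overlap. In the same nuclei without thinning, an alternative added after seeing the data, it was 38.3% and 35.8% uninjured, 22.9% and 35.2% at day 3, followed by 23.1% at day 5 and by 10.6% at day 7. The groups did not overlap there either, though 35.2% lay just below 35.8%. Of filtered nuclei the thinned share was 7.53% and 4.93% uninjured and 0.238% to 0.680% after fracture, and the share without thinning was 11.4% and 9.96% uninjured and 0.596% to 2.67% after fracture. Hematoma entered the fractured samples only, so a smaller share of this population and a larger share of other cells cannot be told apart.

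Of the 4 genes that chose the members, Vwf gave the most UMIs in both uninjured libraries and at day 7, Selp in both day 3 libraries and Aqp1 at day 5. Vwf made up 75.6% and 54.0% of the UMIs of the 4 genes in uninjured nuclei, 32.7% and 26.4% at day 3, followed by 28.0% at day 5 and by 40.5% at day 7. Selp made up 4.12% and 10.0% uninjured, 51.0% and 36.4% at day 3, followed by 12.9% at day 5 and by 16.2% at day 7. Aqp1 gave 45.7% at day 5 and 8.16% to 29.1% elsewhere. Over all libraries 198 of the 237 members had a Vwf UMI, 109 a Selp UMI, 171 an Aqp1 UMI and 123 an Lhx6 UMI. All 4 genes were found in 41 nuclei and a single one in 40, while 25 members, 14 of them from day 5, had neither Vwf nor Selp.

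Vwf measured 2349.8 and 1373 CPM without injury, then 667 and 421 (day 3), 412 (day 5) and 743 (day 7) (CPM, counts of the gene per 1000000 UMIs of the summed nuclei). Both uninjured values lay above all 4 fractured ones. The same order held when all endothelial nuclei were summed, whatever their UMIs of the 4 genes: 1424 and 802 CPM uninjured, then 205 and 189 (day 3), 134 (day 5) and 140.1 (day 7). Selp measured 128 and 254 CPM without injury, then 1042 and 579.7 (day 3), 189 (day 5) and 297 (day 7), with both day 3 libraries above every other. Over all endothelial nuclei Selp was 85.9 and 150.0 CPM uninjured, then 232 and 229 (day 3), 46.8 (day 5) and 38.2 (day 7). Aqp1 was 317 and 739.8 CPM without injury, then 167 and 358 (day 3), 672 (day 5) and 198 (day 7), and Lhx6 312 and 174 CPM without injury, then 167 and 233 (day 3), 197 (day 5) and 595 (day 7), both with overlapping groups. Emcn, a proposed marker that also sits in the endothelial gate, was 874 and 1231 CPM without injury, then 250 and 1029 (day 3), 1144 (day 5) and 892 (day 7), lowest in day 3 replicate 1, where it rested on 6 UMIs. In the nuclei outside the endothelial gate, thinned to 500 UMIs each, 0.82% had a Vwf UMI and 0.22% a Selp UMI, against 47.3% and 9.28% of members, and shares at that level are read as background.

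**Figure D2:**
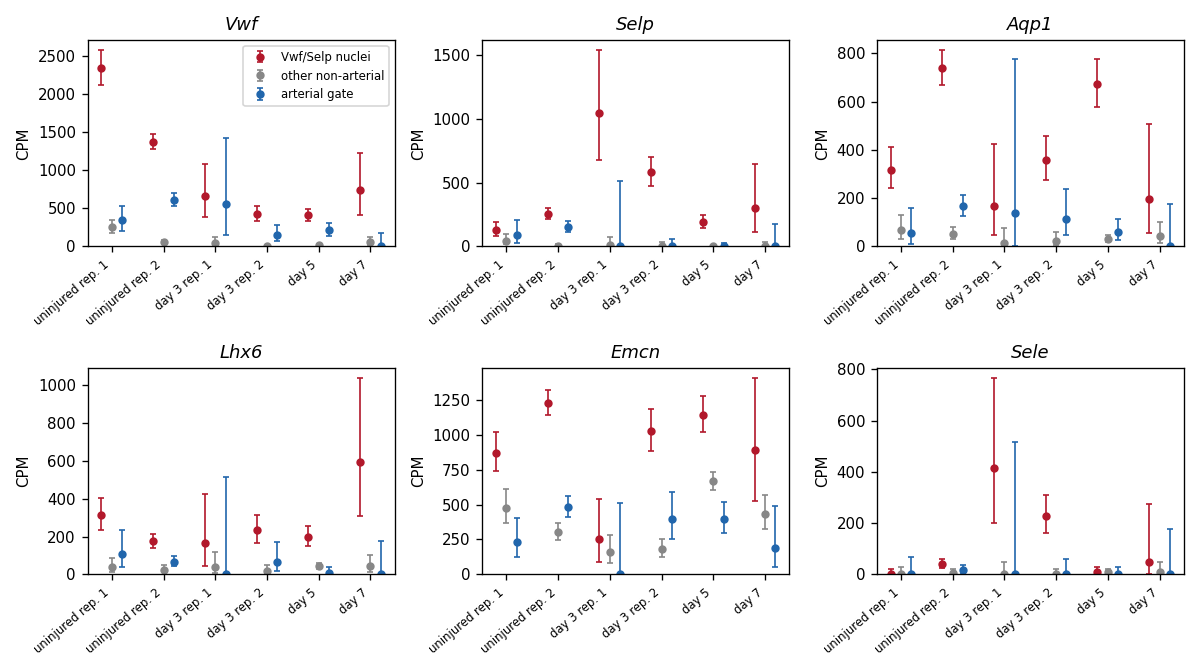
Level of Vwf, Selp, Aqp1, Lhx6, Emcn and Sele in each library, in CPM, in Vwf/Selp nuclei (red), other non-arterial blood endothelial nuclei (grey) and arterial-gate nuclei (blue). Points are libraries and bars exact Poisson 95% intervals, which cover counting error only. All genes but Sele took part in choosing the nuclei. Sele reached 417 and 227 CPM in Vwf/Selp nuclei of the day 3 libraries and at most 49.6 elsewhere.

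The 38 members with exactly 3 UMIs of the 4 genes had a median of 2856 UMIs, and the 52 nuclei just outside the threshold with 2 UMIs a median of 2006. Il1r1 was at 1046 CPM with 4 or more UMIs of the 4 genes, 529 with 3, 475 with 2, 424 with 1 and 260.5 with none. Calcrl was at 897, 786, 723, 433 and 288 CPM in that order. Both lay lower at each lower sum. Nr2f2 was at 354, 322, 167, 244 and 309.7 CPM, so that the 309 nuclei with none of the 4 genes held about as much as members with 3. Tll1 was at 1467, 1773, 341, 718 and 179 CPM, also without a steady order. The endothelial gate gene Pecam1 differed too, with 1655, 2002, 1533, 1294 and 721 CPM. Ackr1 was at 80.6 CPM with 4 or more UMIs and at 7.15, from 1 UMI, with exactly 3. The 25 members without Vwf or Selp had 260.1 CPM of Il1r1 and 25.4 of Myrip, where members with them had 1094 and 852. All values in this paragraph pool the 6 libraries. Of the 25, only 3 and 1 came from the 48 and 100 uninjured members, with 6 from day 3 replicate 2, 14 from day 5 and 1 from day 7. Myrip was also lower after fracture, as given below, so gate genes and fracture cannot be told apart here.

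The name venous and sinusoidal endothelium, under which these nuclei were proposed, was checked against markers. Its venous part was checked with 13 venous genes, none of them in the gate. Nr2f2 (COUP-TFII, ENSMUSG00000030551, chr7:70351944-70366735), the factor that sets venous identity, was found in every library, at 429 and 315 CPM without injury, then 625 and 216 (day 3), 416 (day 5) and 595 (day 7). Nuclei of the arterial gate held 72.1, 33.3 and 51.3 CPM in the libraries of at least 10 such nuclei (uninjured replicates 1 and 2 and day 5), below all 6 values in Vwf/Selp nuclei. Ackr1, a chemokine receptor of venules, was 39.0 and 107 CPM without injury, then 41.7 and 79.6 (day 3), 26.0 (day 5) and 0 (day 7), from 0 to 60 UMIs a library. Summed over the 13 genes, venous markers ran from 6542 to 8803 CPM in the 6 sets of Vwf/Selp nuclei, from 1566 to 4923 in the other non-arterial nuclei and from 1764 to 4590 in arterial-gate nuclei. Lymphatic-gate nuclei were not set apart by this sum, with 7531 and 6895 CPM in the 9 and 32 such nuclei of the uninjured libraries and 1868 to 7444 CPM, from 6 to 239 UMIs, after fracture. Capillary markers (13 genes) summed to 2756 and 3201 CPM in uninjured Vwf/Selp nuclei. After fracture they summed to 375 and 3103 (day 3), 1716 (day 5) and 743 (day 7). The other non-arterial nuclei held 2097, 1681, 769, 713, 1204 and 834 CPM in that order, and arterial-gate nuclei 1786, 1722, 419, 2298, 1195 and 1287. Vwf/Selp nuclei held more of this list too, except in day 3 replicate 1 and at day 7, from 9 and 15 UMIs.

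The sinusoidal part of the name had less to rest on, and the nuclei are therefore named by their genes. Of 10 sinusoidal genes, Gata4, Clec4g and Dnase1l3 had no UMI in any of the 6 libraries. Stab1 had UMIs in every library but day 7. Stab2 was 5.57 and 5.34 CPM without injury, then 0 and 0 (day 3), 37.2 (day 5) and 0 (day 7), from 14 UMIs in all, and the lymphatic and sinusoidal gene Lyve1 had 1 UMI. A UMI was found for 7 of the 10 genes in uninjured replicate 2 and at day 5 and for 2 in the 6 nuclei of day 7, where these were Il6st and Adgrg6, which other endothelium also expresses. The summed level of the list was nevertheless higher in Vwf/Selp nuclei than in the other non-arterial nuclei in all 6 libraries, at 806 to 1967 CPM against 435 to 1041. Lymphatic-gate nuclei held 643 to 2481 CPM.

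The 12 arterial markers outside the gate also summed to more in Vwf/Selp nuclei (5194 to 6546 CPM) than in the other non-arterial nuclei (2150 to 5046 CPM), in all 6 libraries. Most of this was Mecom, a transcription factor gene, at 4761 and 5922 CPM without injury, then 5125 and 5041 (day 3), 4652 (day 5) and 5402 (day 7) in Vwf/Selp nuclei and at 3032 and 1424 CPM without injury, then 4587 and 1677 (day 3), 2365 (day 5) and 2729 (day 7) in the other non-arterial nuclei. Arterial-gate nuclei held 4891 to 13327 CPM of the list, more than Vwf/Selp nuclei in each library but day 3 replicate 1, where it rested on 35 UMIs. In Vwf/Selp nuclei Gja4 had 0 UMIs in every library and Hey1 had 1. Of 10 immune genes, between 0 and 8 had a UMI in a library, with 0 to 193 CPM in sum. The 10 pericyte and smooth muscle genes summed to 0 to 248 CPM and the 10 skeletal muscle genes to 81.7 to 1028 CPM, apart from 6691 CPM in the 6 nuclei of day 7.

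The question of what sets these nuclei apart from the remaining blood vessels was addressed with 2 comparisons inside each library. The first set of comparators comprised 453 other non-arterial blood endothelial nuclei, which passed the same limits but held under 3 UMIs of the 4 genes. The second comprised 135 arterial-gate nuclei with 2 or more UMIs of Gja5, Sema3g, Sox17 and St8sia6. UMIs of 64 genes marking other cell types were fewer than endothelial gate UMIs in 204 of the 237 Vwf/Selp nuclei. This held for 224 of the 453 and 102 of the 135 comparators. Median endothelial gate UMIs were 17, 5 and 12 in that order. Nuclei that carried more UMIs of other cell types stayed in the main comparisons and in the shares of endothelial nuclei. Counts were summed per library and set and tested with the quasi-likelihood test of edgeR with the library as a block and Benjamini-Hochberg adjustment, without the 16 gate genes. Vwf/Selp nuclei were deeper, with a median of 4388 UMIs against 1818 in the other non-arterial nuclei over all libraries, and the part of depth in the differences was tested only by the limit of 1500 UMIs a nucleus. Both comparisons share the Vwf/Selp nuclei, so that their results are not independent of each other.

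Against arterial-gate nuclei (uninjured replicates 1 and 2 and day 5), 7 of the 11 venous genes tested were higher in Vwf/Selp nuclei and none lower, with a median log2 fold change of 1.45 beside 0.01 over all 4991 genes tested. Of all genes, 3.35% were called, 1.36% higher (68) and 1.98% lower (99). Of the 10 arterial genes tested, 6 were lower and none higher, with a median of -1.79. Nr2f2 was at 429, 315 and 416 CPM in Vwf/Selp nuclei against 72.1, 33.3 and 51.3. It was higher in 3 of 3 libraries (log2 fold change 3.01 ± 0.32 (SE), adjusted p = 2.32e-04). Lrg1, a secreted glycoprotein that modifies TGF-beta signalling, was at 117, 238 and 223 CPM against 0, 44.4 and 22 (log2 fold change 2.82 ± 0.43 (SE), adjusted p = 0.00393). Calcrl, the receptor for adrenomedullin, Il1r1, the receptor for interleukin-1, Nrp2, a co-receptor for VEGF, and Plvap, which forms the diaphragms of fenestrae and caveolae, were higher by log2 fold changes of 1.84, 1.57, 1.33 and 1.45. Their values in the 3 libraries did not overlap between the sets.

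Among the genes with the largest differences, Ret, the receptor of the GDNF family, was at 206, 124 and 48.3 CPM against 0, 33.3 and 0 (log2 fold change 2.62 ± 0.58 (SE), adjusted p = 0.0257). Tll1, a metalloproteinase of the BMP1 family, was at 690.5, 1793 and 1494 CPM against 18.0, 505 and 183 (log2 fold change 2.62 ± 0.36 (SE), adjusted p = 0.00221). The protocadherin Pcdh7 was at 2918, 3084 and 1003 CPM against 108, 863 and 359. Cmah, which makes a form of sialic acid, had 1013, 507 and 862 CPM against 216, 230.2 and 0, where day 5 had no UMI in arterial nuclei. Hmgcll1, Pgm5, the protease gene Adamts18 and Lbp, which binds lipopolysaccharide, were also among the higher genes named by the rule, with log2 fold changes from 2.53 to 2.74 apart from Lbp at 2.35. Nrxn3, a synaptic adhesion gene, rested on 1 UMI in arterial nuclei and 67 in Vwf/Selp nuclei.

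The genes that were lower than in arterial-gate nuclei belonged in part to Notch signalling, which sets arterial identity. Of 13 Notch genes tested, 4 were lower and none higher, with a median of -0.07. They were the ligands Dll4 (-2.53 on the log2 scale), Jag1 (-1.76) and Jag2 (-1.76), and the endothelial receptor Notch4 (-2.19). Efnb2, the arterial ephrin, was at 139, 81.8 and 89.2 CPM against 307, 297 and 447 (log2 fold change -1.82 ± 0.30 (SE), adjusted p = 0.00519). Prdm16, a transcription factor of arterial endothelium, was at 11.1, 12.4 and 7.43 CPM against 919.9, 696 and 117, and Nebl at 11.1, 5.34 and 18.6 against 1028, 435 and 198. The tight-junction gene Cldn5 was at 11.1, 16 and 40.9 CPM against 289, 327 and 198 (log2 fold change -3.60 ± 0.45 (SE), adjusted p = 0.00104). Efna5, Atp2a3, Lrrc3b, Eps8l2, Pip5k1b and Rnf152 were lower by log2 fold changes from -3.33 to -4.51. The noncoding gene Mannr had 0 UMIs in Vwf/Selp nuclei and 112 in arterial-gate nuclei, at least 68.3-fold lower with 3 UMIs over the group as the floor. It passed the filter on low counts through arterial-gate nuclei alone, so the direction of its call was fixed. Gm33206 and Tox2 had 1 UMI each in Vwf/Selp nuclei.

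Vessel-wall genes also differed from arterial-gate nuclei. Of 17 basement membrane genes, 2 were lower, fibronectin (Fn1, log2 fold change -2.78 ± 0.46 (SE), adjusted p = 0.00538) and the laminin chain Lama3 (-1.78), with a median of -0.27. Of 16 BMP and TGF-beta genes, Eng (1.28) and Tgfbr3 (1.35), both co-receptors, were higher, and the ligands Bmp6 and Tgfb2 and the inhibitor Smad7 were lower. Of 13 Weibel-Palade body and coagulation genes, 2 were higher and none lower. They were Rab27a (log2 fold change 1.63 ± 0.39 (SE), adjusted p = 0.0363), the small GTPase on Weibel-Palade bodies, and Tfpi (log2 fold change 2.19 ± 0.51 (SE), adjusted p = 0.034), the inhibitor of tissue factor. Of 12 leukocyte adhesion and chemokine genes, none was called, with a median of 0.04 and 3 at unadjusted p under 0.05. Of 8 skeletal muscle genes, 5 were lower, among them Trdn (-3.10). The muscle genes summed to 440, 1028 and 81.7 CPM in Vwf/Selp nuclei against 559, 6190 and 213 CPM in arterial-gate nuclei. Their part in the differences was not tested alone, only within a limit on all other cell types given below. The result depended on 1 library: without uninjured replicate 2, which held 71 arterial-gate nuclei where the others held 24 and 25, edgeR called 0 genes, with 304 at unadjusted p under 0.05, and DESeq2 was not run on that subset. It called 75 without uninjured replicate 1 and 294 without day 5. DESeq2 on all 3 libraries called 97.

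**Figure D3:**
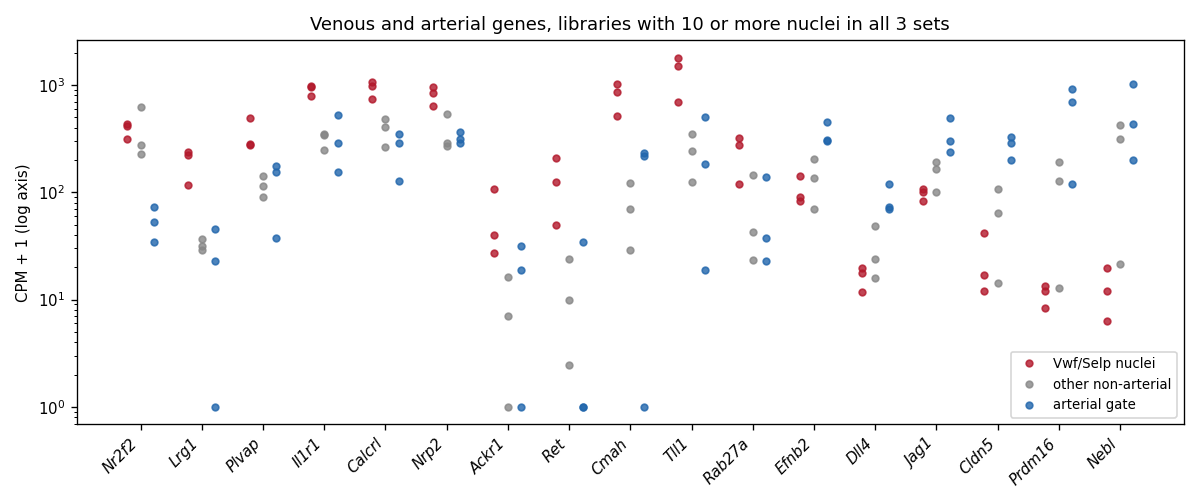
Level of venous genes, genes highest in Vwf/Selp nuclei and arterial genes in uninjured replicates 1 and 2 and day 5, in CPM plus 1 on a log axis. Each point is 1 library and set, Vwf/Selp nuclei in red, other non-arterial nuclei in grey and arterial-gate nuclei in blue. Nr2f2 and Plvap separate red from blue without overlap, and Prdm16 and Nebl lie at 5.34 to 18.6 CPM in red and at 117 to 1028 in blue.

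Against the other non-arterial nuclei (uninjured replicates 1 and 2, day 3 replicate 2 and day 5), 10.2% of 5779 genes were called, 3.32% higher (192) and 6.92% lower (400). Of the 12 venous genes tested, 8 were higher and none lower, with a median log2 fold change of 1.5 beside -0.02 over all genes. Higher calls were not limited to this list. Of 8 arterial genes, Fbln5 and Mecom were higher and Nebl lower (median 0.11), of 7 capillary genes 2 were higher and none lower (median 0.62), and of 5 sinusoidal genes Adgrg6 and Il6st were higher and Maf lower (median 0.97). Ackr1 (ENSMUSG00000037872, chr1:173331886-173333750) was at 39.0, 107, 79.6 and 26.0 CPM against 15.2, 5.97, 0 and 0 (log2 fold change 3.87 ± 0.74 (SE), adjusted p = 0.00793), higher in 4 of 4 libraries, from 4 UMIs in all in the comparators. Lrg1 was at 117, 238, 148 and 223 CPM against 30.4, 35.8, 11.7 and 28.0 (log2 fold change 2.76 ± 0.31 (SE), adjusted p = 5.00e-04). Plvap, Il1r1, Calcrl, Nrp2, Ephb4 (the venous ephrin receptor) and Tek (the angiopoietin receptor) were higher by log2 fold changes from 1.14 to 1.97. Nr2f2, at 429, 315, 216 and 416 CPM against 274, 615, 105 and 227, was not among the called genes (adjusted p = 0.715) and was lower in Vwf/Selp nuclei of uninjured replicate 2.

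Ackr1, Cmah and Ret led the higher genes named by the rule. Cmah was at 1013, 507, 631 and 862 CPM against 122, 68.7, 17.5 and 28.0 (log2 fold change 3.81 ± 0.41 (SE), adjusted p = 4.21e-04). Ret was at 206, 124, 11.4 and 48.3 CPM against 22.8, 8.96, 0 and 1.48 (log2 fold change 3.74 ± 0.46 (SE), adjusted p = 8.41e-04). Tll1 was at 690.5, 1793, 1517 and 1494 CPM against 243, 122, 64.3 and 349.7 (log2 fold change 2.87 ± 0.45 (SE), adjusted p = 0.00307). Cysltr1, a receptor for cysteinyl leukotrienes, and Htr2b, a receptor for serotonin, were higher by 3.65 and 3.41 on the log2 scale, the potassium channel gene Kcnh1 by 3.21, and Rnf165, Fmo2 and Plekha7 by 2.51, 2.35 and 2.34. Myrip, which links Rab27a-coated granules to the cytoskeleton, was at 1704, 1012, 56.8 and 100.3 CPM against 798, 134, 5.84 and 4.43 (log2 fold change 2.43 ± 0.46 (SE), adjusted p = 0.00758). Its partner Rab27a was at 317, 272, 102 and 119 CPM against 144, 41.8, 29.2 and 22.1 (log2 fold change 1.99 ± 0.32 (SE), adjusted p = 0.00314). Rab27a was the only one of 15 Weibel-Palade body and coagulation genes called, with a list median of 0.62.

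Other vascular lists moved in part. Of 12 leukocyte adhesion and chemokine genes, Ackr1 and the junctional adhesion molecule Jam2 (1.95) were higher and Jam3 (-2.25) was lower, with a list median of 0.92. Of 15 junction and permeability genes, 4 were higher (Jam2, Plvap, Ehd4 and Ptprb) and none lower, with a median of 0.66. Among 12 VEGF, angiopoietin and TIE genes, Nrp2, Tek, Tie1, Vegfc and Ptprb were higher and Vegfa was lower. Bmp4 was the BMP ligand that was higher (1.38), together with Eng and Bmpr2. With the limit on UMIs of other cell types described below, none of the 6 VEGF, angiopoietin and TIE genes stayed called. Vegfa was no longer tested. None of the 6 BMP and TGF-beta genes stayed called either, with edgeR adjusted p from 0.297 to 0.690 for Bmp4, Eng and Bmpr2. None of the 10 Notch genes tested was called, with 4 at unadjusted p under 0.05 and a median of 0.19.

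The genes lower than in the other non-arterial nuclei were led by those of muscle fibres and mural cells. Genes named by the rule included Carmn, Myo18b, Synpo2, Stac, Unc13c, Atcayos, Trdn, Ppp1r3a, Neb, Mypn and Ampd1, of which Neb, Trdn, Mypn, Myo18b and Ampd1 are genes of striated muscle. Carmn, a noncoding gene of smooth muscle, had 0 UMIs against 88, at least 26.5-fold lower with 3 UMIs over the group as the floor. It passed the filter on low counts through the comparators alone, so the direction of its call was fixed. Of 9 skeletal muscle genes, 8 were called lower (median -4.25), of 9 pericyte and smooth muscle genes 8 (median -4.70) and of 8 fibroblast and stromal genes 5 (median -1.62). Skeletal muscle genes summed to 440, 1028, 534 and 81.7 CPM in Vwf/Selp nuclei and to 4665, 26557, 13694 and 677 CPM in the comparators. When only nuclei were kept whose UMIs of 64 genes marking other cell types were fewer than their endothelial gate UMIs, an alternative added after seeing the data, 36 genes were called higher and 20 lower of those tested in uninjured replicates 1 and 2 and day 5. Of the 192 higher genes 25 were then called and of the 400 lower genes 10. Of the 8 venous genes called in all nuclei, Lrg1 and Il1r1 were then called, Ackr1 was no longer tested, and Plvap, Calcrl, Nrp2, Ephb4 and Tek had log2 fold changes of 0.57 to 0.80 with adjusted p from 0.117 to 0.534. With Nr2f2 and Cpe, 4 of 10 venous genes tested were then higher and none lower (median 0.78). Of the 3 arterial genes called in all nuclei Nebl was called, with a list median of -0.46 over 9 genes. Rab27a, Cysltr1, Htr2b, Tie1 and Ptprb were not called either (adjusted p from 0.0549 to 0.471). The 36 included Ret, Kcnh1, Cmah, Rnf165, Tll1, Lrg1, Myrip, Adamts18, Pcdh7, Pgm5, Il1r1, Jam2 and Nr2f2 (log2 fold change 1.23), and the 20 lower ones Prdm16, Nebl, Atp2a3 and Fn1. In arterial-gate nuclei the same limit left 70 higher and 93 lower calls, 55 and 73 of them shared with all nuclei. Without uninjured replicate 2, 89 genes were called against the other non-arterial nuclei (12 higher, 77 lower), and without day 5, 373.

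Of the 68 genes higher than in arterial-gate nuclei, 44 (64.7%) were also higher than in the other non-arterial nuclei, where they are 22.9% of the 192. The Vwf/Selp nuclei are shared by both comparisons, so this overlap is given as a count only.

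The effect of fracture within Vwf/Selp nuclei was tested between uninjured replicates 1 and 2 and, as fractured libraries, day 3 replicate 2 and day 5. The spread of the fractured group therefore holds the difference between days as well as that between libraries. Of 4505 genes, 3.57% were called, 1.40% higher after fracture (63) and 2.18% lower (98). Among the higher genes were Top2a and Mki67 of dividing cells and Col4a1 and Col4a2 of the vascular basement membrane, and among the lower ones Myrip, Rab27a, Zbtb16 and Hlf. Uninjured replicate 1 and day 5 were made with Cell Ranger 6.0.0 and the other two with 7.1.0. With the version as a block, an alternative added after seeing the data, 252 and 310 genes were called, which included all 63 and all 98. Uninjured replicate 2 and day 3 replicate 2 also differed in Xist and Y-linked UMIs, as given above, whose part in the result was not tested. The 4 genes that chose the nuclei gave different parts of the gate UMIs in uninjured and fractured members, as given above. Choice of nuclei and fracture therefore cannot be told apart. With a Vwf or Selp UMI required, 47 genes were called higher and 68 lower, 41 and 61 of them shared with all members. With 1 library left out, 1 group is a single library that is assumed to vary like the group of 2, so these counts do not measure stability. They were 348 without uninjured replicate 1, 460 without uninjured replicate 2, 447 without day 3 replicate 2 and 124 without day 5.

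Of 15 cell cycle genes, 3 passed the filter on low counts, Top2a, Mki67 and Diaph3. All 3 passed through the fractured libraries alone, so that the direction of their calls was fixed by the filter. Top2a, which untangles chromosomes, had 0 and 0 UMIs without injury, then 0 and 12 (day 3), 27 (day 5) and 0 (day 7). Against 3 UMIs over the uninjured group as the floor, it was at least 21.7-fold higher in the libraries tested (adjusted p = 0.024). Mki67, the Ki-67 antigen, was at 0 and 1.78 CPM without injury, then 41.7 and 73.9 (day 3), 63.2 (day 5) and 0 (day 7) (adjusted p = 0.0263), from 1 UMI in uninjured nuclei. Diaph3, a formin, was at 22.3 and 14.2 CPM without injury, then 667 and 296 (day 3), 372 (day 5) and 49.6 (day 7), higher by 4.19 on the log2 scale. The DNA repair gene Neil3, the kinesin gene Kif15 and Ccnjl had 0 UMIs in uninjured nuclei and 40, 31 and 26 in the fractured libraries tested, at least 22.2-, 17.2- and 14.4-fold higher. They too passed the filter through the fractured libraries alone, so the direction of their calls was also fixed.

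UMIs of at least 2 of the 15 cell cycle genes were found in 0 of 48 and 0 of 100 uninjured Vwf/Selp nuclei, which allow shares of up to 7.40% and 3.62% (exact 95% interval). After fracture they were found in 1 of 8 and 9 of 19 nuclei (day 3), 7 of 56 (day 5) and 0 of 6 (day 7). Depth differed, with a median of 9166 UMIs in day 3 replicate 2. With each nucleus thinned to 500 UMIs, a UMI of at least 1 of the genes was found in 0 of 48 and 2 of 100 uninjured nuclei, then 1 of 8 and 3 of 19 (day 3), 6 of 56 (day 5) and 0 of 6 (day 7). In the other non-arterial nuclei these thinned shares were 3.23% and 1.15% uninjured, 23.1% and 36.0% at day 3, followed by 17.8% at day 5 and by 17.2% at day 7.

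**Figure D4:**
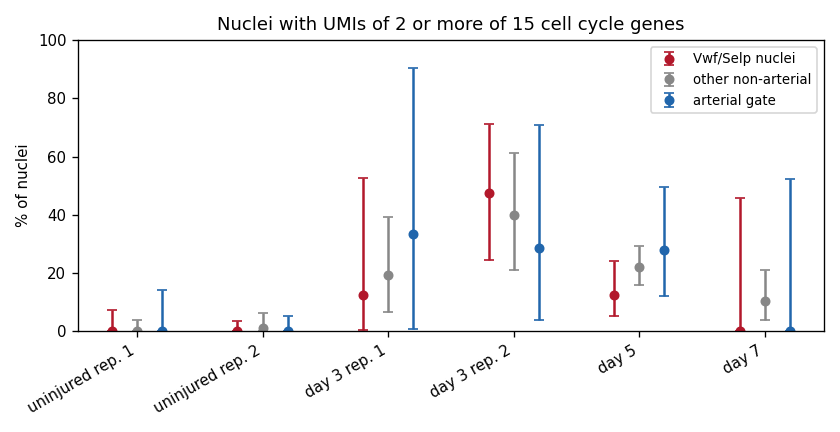
Percent of nuclei with UMIs of 2 or more of 15 cell cycle genes in each library, not thinned, for Vwf/Selp nuclei (red), other non-arterial nuclei (grey) and arterial-gate nuclei (blue). Bars are exact binomial 95% intervals. Uninjured sets lie at 0 to 1.14%, and Vwf/Selp nuclei reach 47.4% in day 3 replicate 2 and 12.5% in day 3 replicate 1 and at day 5.

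The basement membrane, on which endothelium rests, was the vascular list with the most calls. Of 17 genes tested, 3 were higher and none lower, with a median of 0.85 beside -0.0038 over all genes. Col4a1, a chain of collagen IV, measured 78.0 and 151 CPM without injury, then 625 and 2285 (day 3), 1445 (day 5) and 1189 (day 7). All 4 fractured libraries lay above both uninjured ones, including the 2 that the test did not use (log2 fold change 3.84 ± 0.41 (SE), adjusted p = 0.00797). Col4a2, its partner chain, was 111 and 173 CPM without injury, then 458 and 995 (day 3), 977 (day 5) and 396 (day 7) (log2 fold change 2.65 ± 0.33 (SE), adjusted p = 0.0101). Lamb1, a laminin chain, was 11.1 and 24.9 CPM without injury, then 83.3 and 136 (day 3), 167 (day 5) and 0 (day 7) (log2 fold change 2.78 ± 0.49 (SE), adjusted p = 0.0253), with 0 at day 7, where 20177 UMIs in all were read. Sparc had a log2 fold change of 1.37 with an adjusted p of 0.0786. Genes that mark growing vessels were called in single cases. Mcam, 1 of 5 sprouting genes tested, was higher (log2 fold change 2.27 ± 0.39 (SE), adjusted p = 0.0251), and so were Aplnr (log2 fold change 2.69 ± 0.58 (SE), adjusted p = 0.0464), the apelin receptor, and Kit (log2 fold change 5.72 ± 0.72 (SE), adjusted p = 0.0101), the receptor of stem cell factor, both from the capillary list. Kit had 2 UMIs in the uninjured libraries and 76 in the fractured ones tested. It passed the filter on low counts through the latter alone, so the direction of its call was fixed. Angpt2, which destabilises vessels, was 0 and 23.1 CPM without injury, then 83.3 and 273 (day 3), 52.0 (day 5) and 0 (day 7) and missed the threshold (adjusted p = 0.113).

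Further genes named by the rule were higher after fracture. Nox4, an oxidase that makes hydrogen peroxide, was 11.1 and 8.89 CPM without injury, then 125 and 278 (day 3), 513 (day 5) and 99.1 (day 7) (log2 fold change 5.24 ± 0.53 (SE), adjusted p = 0.00797). Runx1, a transcription factor of blood-forming endothelium, was 5.57 and 7.11 CPM without injury, then 83.3 and 256 (day 3), 279 (day 5) and 595 (day 7) (log2 fold change 5.14 ± 0.47 (SE), adjusted p = 0.00797). All fractured libraries lay above the uninjured ones for both. Igfbp3, Mest, Adam19 and Camk4 rested on 1 to 3 UMIs in the uninjured libraries and on 47 to 75 in those after fracture. Like Nox4 and Runx1, they passed the filter on low counts through the fractured libraries alone, so the direction of these calls was fixed. The connexin Gja1 (log2 fold change 3.08 ± 0.54 (SE), adjusted p = 0.0251) and the adhesion molecule Alcam (log2 fold change 3.52 ± 0.67 (SE), adjusted p = 0.0322) were the called members of the junction and adhesion lists. Fibroblast and stromal genes summed to 145 and 430 CPM in uninjured and to 682 and 2326 CPM in the fractured libraries tested, and their part in the higher genes was not tested alone. With the limit on UMIs of other cell types set on the nuclei, 58 of the 63 higher and 94 of the 98 lower genes were called. Fewer were called in other sets of libraries. With all libraries of at least 5 nuclei, 38 of the 63 and 75 of the 98 were called. For day 5 and day 7 against uninjured at that limit, 10 of the 63 and 27 of the 98 were called.

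Both Myrip and Rab27a, which act together on Weibel-Palade bodies, were lower after fracture. Myrip was 1704 and 1012 CPM without injury, then 250 and 56.8 (day 3), 100.3 (day 5) and 49.6 (day 7) (log2 fold change -4.17 ± 0.45 (SE), adjusted p = 0.00797), and all fractured libraries lay below the uninjured ones. Rab27a was 317 and 272 CPM without injury, then 167 and 102 (day 3), 119 (day 5) and 99.1 (day 7) (log2 fold change -1.5 ± 0.32 (SE), adjusted p = 0.0471). Rab27a was the only called gene among 13 tested of the Weibel-Palade body and coagulation list, whose median was -0.35. Myrip was not on that list. In the other non-arterial nuclei both genes were also lower in day 3 replicate 2 and at day 5 than in the uninjured libraries, by the values given above. The interaction for Rab27a, tested as described below, was 0.27 ± 0.65 (SE) and not called. Zbtb16 (PLZF), which glucocorticoids induce, was 1721 and 704 CPM without injury, then 250 and 39.8 (day 3), 40.9 (day 5) and 49.6 (day 7) (log2 fold change -5.00 ± 0.55 (SE), adjusted p = 0.00797). Fmo2 and Fmo1, flavin monooxygenases, had log2 fold changes of -3.48 and -4.00, and Ephx1, an epoxide hydrolase, had 1 UMI in the fractured libraries tested against 78.

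Of 9 clock genes tested, 2 were called, Tef (log2 fold change -2.42 ± 0.43 (SE), adjusted p = 0.0253) and Hlf, both transcription factors of the PAR family, with a median of -1.20. Hlf had 16 and 83 UMIs in the uninjured libraries and 0 in both fractured libraries tested, at least 19.8-fold lower with 3 UMIs over the group as the floor. Times of tissue collection were not given in the sources used here. Pkhd1l1, with 31 and 97 UMIs uninjured, had 0 in all 4 fractured libraries, at least 25.6-fold lower in those tested. The muscarinic receptor gene Chrm3 was 1108 and 377 CPM without injury, then 0 and 0 (day 3), 29.7 (day 5) and 0 (day 7) (log2 fold change -5.48 ± 0.87 (SE), adjusted p = 0.0213). Gm6213, Lrfn2, Mettl7a1 and 4930428N03Rik had 0 UMIs in the fractured libraries tested and 47 to 56 in the uninjured ones, at least 9.40- to 11.2-fold lower. Like Hlf and Pkhd1l1, these genes passed the filter on low counts through the uninjured libraries alone, so the direction of their calls was fixed. Nkain2, Cytl1 and Megf6 had 1 or 2 UMIs in the fractured libraries tested and also passed through the uninjured ones alone. Among signalling genes, Bmp4, a BMP ligand, was 173 and 203 CPM without injury, then 41.7 and 34.1 (day 3), 37.2 (day 5) and 149 (day 7) (log2 fold change -2.49 ± 0.40 (SE), adjusted p = 0.0213), with 3 UMIs at day 7. Adgrg6, an adhesion G protein-coupled receptor, was 473 and 265 CPM without injury, then 125 and 22.7 (day 3), 59.4 (day 5) and 99.1 (day 7) (log2 fold change -3.16 ± 0.52 (SE), adjusted p = 0.0222), and the arterial kinase gene Bmx was lower, with a log2 fold change of -3.08.

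**Figure D5:**
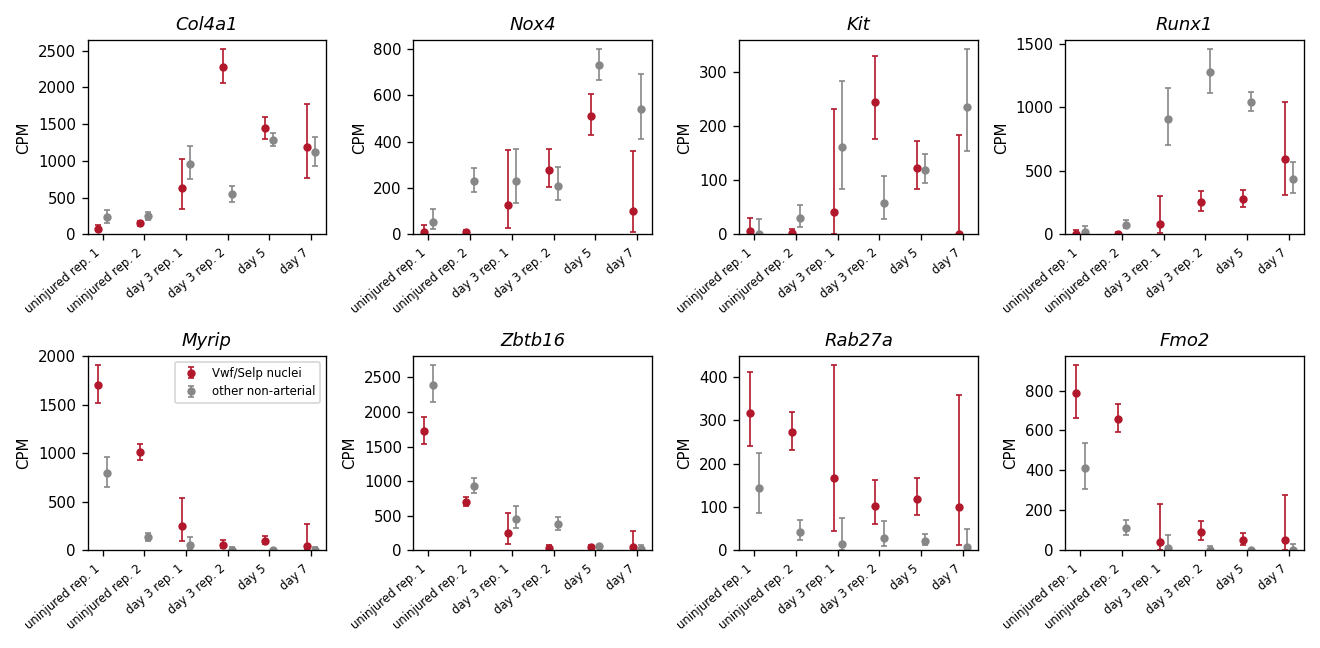
Level of 8 genes in each library, in CPM, in Vwf/Selp nuclei (red) and other non-arterial nuclei (grey), with exact Poisson 95% intervals. Col4a1, Nox4, Kit and Runx1 were called higher and Myrip, Zbtb16, Rab27a and Fmo2 lower after fracture in Vwf/Selp nuclei. Nox4, Kit and Runx1 passed the filter on low counts through the fractured libraries alone. Col4a1 lay at 78.0 and 151 CPM uninjured and at 625 to 2285 after fracture, and Myrip at 1012 to 1704 and at 49.6 to 250.

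Venous identity genes showed no call with fracture. None of the 12 venous genes tested was called, with 1 at unadjusted p under 0.05 and a median of -0.25. Of all genes 3.57% were called. In simulated counts of this design the test called 3.26% of genes changed by 1 on the log2 scale. The lack of calls therefore cannot show that these genes were unchanged. The log2 fold change was -0.31 ± 0.40 for Nr2f2, -0.07 ± 0.41 for Lrg1 and -0.76 ± 0.65 for Ackr1 (SE). Sele was 0 and 40.9 CPM without injury, then 417 and 227 (day 3), 7.43 (day 5) and 49.6 (day 7), from 0, 23, 10, 40, 2 and 1 UMIs, and both day 3 libraries lay above all others. In the other non-arterial nuclei at day 3 it had 0 UMIs in both libraries, with 3 UMIs corresponding to 40.5 and 17.5 CPM. Sele was found in 3 of 8 and 6 of 19 members at day 3 and in 0 of 48 and 7 of 100 uninjured members. With libraries of at least 5 nuclei, added after seeing the data, day 3 could be tested against uninjured, 2 libraries each. Sele missed the threshold (log2 fold change 3.30 ± 0.83 (SE), adjusted p = 0.117). Of 3764 genes, 0.611% were called, 0.186% higher (7) and 0.425% lower (16), among them Nox4, Runx1 and Diaph3 higher and Fmo1, Fmo2, Chrm3 and Pkhd1l1 lower. Icam1, another adhesion molecule that cytokines induce, was 94.7 and 164 CPM without injury, then 41.7 and 159 (day 3), 55.7 (day 5) and 99.1 (day 7). Vcam1 was 33.4 and 71.1 CPM without injury, then 41.7 and 114 (day 3), 37.2 (day 5) and 0 (day 7). The groups overlapped for both.

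Whether the fracture response differed between Vwf/Selp nuclei and the other non-arterial nuclei was tested as an interaction over 4 libraries. By edgeR 0 of 5779 genes were called (0%), with 311 at unadjusted p under 0.05, and by DESeq2 none was called, with 116 at unadjusted p under 0.05. In simulated counts of this design, the test called 57.9% of genes changed by 3 and 9.33% of those changed by 2 on the log2 scale. The interaction was 2.14 ± 0.68 (SE) for Col4a1 (adjusted p = 0.627) and 3.98 ± 0.74 for Nox4 (adjusted p = 0.162). Nox4 in the other non-arterial nuclei was 53.2 and 229.9 CPM without injury, then 229 and 210.3 (day 3), 730.4 (day 5) and 539 (day 7). With 1 library left out, which again leaves a group of 1 library, calls numbered 68 without uninjured replicate 1, 1 without uninjured replicate 2, 51 without day 3 replicate 2 and 58 without day 5.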

How the data were processed

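The authors deposited, per library, raw UMI counts for each gene and barcode, made with Cell Ranger on mm10 with intronic and exonic reads (versions per the file headers) and not normalized. The extraction text in the labels names a human genome, but the gene identifiers are those of mouse. Counts were limited to the 30406 genes listed in every library. A barcode was kept where it had 200 to 5000 genes, and where mitochondrial genes gave under 2% and ribosomal protein genes under 1.5% of its UMIs. CPM is the UMIs of a gene per 1000000 UMIs over these genes, and intervals (exact Poisson or Clopper-Pearson, 95%) and floors of 3 UMIs cover counting error only.

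UMIs were summed per library and set of nuclei, filtered with filterByExpr, scaled by TMM and tested with edgeR's quasi-likelihood test (glmQLFit, glmQLFTest), Benjamini-Hochberg adjusted, called under 0.05. Libraries needed 10 nuclei in each set. In every comparison a gene low in 1 group could pass the filter through the other group alone, which largely fixed the direction of its call. Shares were compared with exact two-sided permutation tests over libraries. The planned comparison of day 3 with uninjured had 1 day 3 library left and was not made at that limit. Genes were named by rule: for each comparison and direction, the 12 called genes that changed most, provided their mean reached 50 CPM in the higher group and every library or pair had the same sign, without gate, mitochondrial, ribosomal and sex-linked genes, plus members of 28 gene lists. Some genes that met the rule are not reported here. The members and lists were chosen with earlier results of these data known. In counts simulated as changed by 2 on the log2 scale, the test called 93.0% of changed genes against other non-arterial nuclei, 79.3% against arterial-gate nuclei and 79.6% for fracture. For a change of 1 it called 19.9%, 6.38% and 3.26% in that order. Scrublet's automatic threshold marked 20 of 8073 nuclei (0.248%), so it had not worked, doublets were kept, and the 6% of nuclei with the highest score were removed as an alternative instead. Alternatives were RLE size factors, no filter on low counts, DESeq2, a gate sum of 4, a required Vwf or Selp UMI, looser nucleus limits, at least 1500 UMIs, no library block and each library left out. Coordinates follow GENCODE vM21 (GRCm38), and promoters the RefSeq table, which had entries for 4 of 5 genes looked up, without Vwf. The tools were edgeR 4.0.16 and DESeq2 1.42.0 in R 4.3.3, with scipy 1.17.1, numpy 2.4.6 and scanpy 1.11.5 in Python 3.11.15.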

Additional observations from a re-analysis of the deposited data

Results flagged for a closer look

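Reporter transcripts appeared in a library whose label names none: uninjured replicate 1 held 29 EGFP UMIs and 14 tdTomato UMIs over all barcodes, above the limit of 3 UMIs that a count of 0 allows, while uninjured replicate 2 and day 3 replicate 2, with both reporters in their gene tables, held 0. In Vwf/Selp nuclei of that library 5 of 48 nuclei had an EGFP UMI and 1 a tdTomato UMI.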

How the results depend on the processing

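No paired analysis was possible because the labels give no replicate numbers that groups share. The library block in the comparisons of nuclei within libraries is part of the main design, and for fracture the Cell Ranger version, which is no replicate number, was tried as a block. The following counts are of called genes. Against other non-arterial nuclei (592) they were 1156 with no filter on low counts, 17 with no library block, 56 with the limit on UMIs of other cell types, and 89 to 641 with each library left out (373 without day 5). Against arterial-gate nuclei (167) they were 339 with no filter, 97 by DESeq2, 0 with no library block (259 at unadjusted p under 0.05 by edgeR, DESeq2 not run without the block), and 0 to 294 with each library left out (75 without uninjured replicate 1). For fracture (161) they were 590 with no filter, 562 with the version block (252 higher and 310 lower, against 63 and 98), 59 for day 5 and day 7 with libraries of 5 or more nuclei, and 124 to 460 with each library left out (348 without uninjured replicate 1). For the interaction (0) they were 47 with no filter, 4 with looser nucleus limits, 6 with the limit on UMIs of other cell types, and 1 to 68 with each library left out (58 without day 5). The share of Vwf/Selp nuclei among filtered nuclei, day 3 minus uninjured, was -6.87 percentage points, -6.09 with a gate sum of 4, -5.73 after thinning to 1000 UMIs and -9.52 in the same nuclei without thinning; for all fractured libraries it was -6.73, and -5.75 and -9.29 in these nuclei with and without thinning. Among endothelial nuclei the day 3 difference of -3.75 was -12.0 after thinning and, with 1 library left out, ran from -10.5 to 2.95, reversed without day 3 replicate 1. The cause was not tested, except that unfiltered fits test more genes and fits without a library have fewer samples, for fracture and the interaction with 1 library in a group. Of 1080 alternative values of named genes, 106 were not tested because the gene fell below the count filter, 879 passed the threshold and 95 did not. The sign held in these 974. The naming rule had already required a call and the same sign in every library or pair, so the held sign is no separate support. Day 5 and day 7 at 10 nuclei and the removal of Scrublet's own calls were not run.

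Depth limits what the fracture comparison can show: day 3 replicate 1 and day 7 hold 24002 and 20177 UMIs in Vwf/Selp nuclei, where 3 UMIs are 125 and 149 CPM.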

Other observations

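Several gene lists held no call after fracture in Vwf/Selp nuclei by edgeR, where 3.57% of all genes were called. None of the 6 interferon response genes tested was called, with 1 at unadjusted p under 0.05 and a median of 0.65 on the log2 scale. Of 7 hypoxia and glycolysis genes 0 were called, with 3 at unadjusted p under 0.05 and a median of 0.75, and of 4 immediate-early and stress genes 0, with 2 and a median of 0.97. Of 20 endothelial transcription factor genes 0 were called, with 7 at unadjusted p under 0.05 and a median of 0.19, and of 10 Notch genes 0, with 1 and a median of -0.20. Of 5 mesenchymal transition genes 0 were called, with 4 at unadjusted p under 0.05 and a median of 2.34, and of 6 fibroblast and stromal genes 0, with 5 and a median of 2.38. The median over all genes was -0.0038.

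Against arterial-gate nuclei, 5 of 15 angiocrine ligand genes were lower in Vwf/Selp nuclei and none higher, where 1.98% of all 4991 genes were lower and 1.36% higher, among them Bmp6 (-2.44) and Pdgfd (-1.25). Epas1, an oxygen-sensing transcription factor, was the called gene among 6 hypoxia and glycolysis genes (log2 fold change -1.09 ± 0.23 (SE), adjusted p = 0.0187). Fabp4, a fatty acid carrier of capillaries, was the called gene among 8 capillary genes (log2 fold change 1.15 ± 0.25 (SE), adjusted p = 0.0244).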
